A study of Arabidopsis thaliana with 6 samples.

Results

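Calmodulin-like (CML) proteins were followed in Arabidopsis thaliana seedlings that overexpress the LBD-family transcription factor ASL9. The genes CML23, CML30, CML38, CML41, CML42 and CML43 were chosen by name, and each was read by the probe set that the platform annotation pairs with it. This gave 6 probe sets for 6 genes, out of 22810 probe sets on the array and 13356 genes read by a probe set paired with 1 gene. RNA was measured on Affymetrix ATH1 arrays, which carry short oligonucleotides grouped into probe sets. The 3 ASL9-ox arrays hold RNA of a transgenic line overexpressing ASL9, and the 3 wildtype arrays that of Col-0 plants. Both groups were 2 weeks old and grown upright on agar with Murashige and Skoog salts, and their tissue is labelled as the aerial parts of seedlings. The extraction protocol speaks of whole seedlings. Neither the promoter of the transgene, nor the accession of the transgenic line, nor the number of lines is stated in the sources.

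CML proteins are small calcium sensors made up mainly of EF hands, the helix-loop-helix motifs that bind calcium in calmodulin, and they have no catalytic domain of their own. When a touch, a wound, a pathogen or low oxygen raises calcium in the cytosol, they bind it, change shape and alter the activity of partner proteins. Many CML genes are themselves induced quickly by such stimuli, so their transcript levels are often read as part of the response. The family differs from calmodulin itself in that its members are diverse in sequence, in the tissue where they are transcribed and in the compartment where the proteins reside.

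The comparison asked how transcripts differ where ASL9 is overexpressed. CML23, CML38 and CML41 were lower in ASL9-ox seedlings, CML30 was higher, and CML42 and CML43 did not pass the test. Signals were compared as log2(signal + 16) with limma's moderated test, with Benjamini-Hochberg adjustment over 17059 probe sets and a threshold of 0.05, and "rose" and "fell" are used only of genes past that threshold. All 6 genes were bright enough to be tested. The 3 lower members stand beside 17.0% of all tested probe sets called lower, and the 1 higher member beside 24.6% called higher. Of all tested probe sets 41.7% were called in either direction, against 4 of the 6 CML genes, a set too small to read as standing apart. Higher calls made up 59.1% of all calls, and 44.6% when the arrays were centred on the hybridization controls, transcripts added to every sample. The median log2 fold change of the 6 genes was -0.35, while that of all tested probe sets was 0.08. Their median absolute log2 fold change was 0.58, against 0.24 for all tested probe sets. The members were chosen with earlier results of these data known, so these medians do not show a larger change than in other genes.

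The annotation paired 0 probe sets with ASL9, so the labels could not be checked through the overexpressed gene, and every direction rests on them. Array means were equal, at 100.01 after leaving out the lowest and highest 2% of signals. Such equality can be set by scaling in the processing, so it is no check of the arrays. Between 36.8% and 37.9% of the signals on an array were under 16, and detection calls were not used here. Most CML signals were within a few times this level. The array labelled wildtype replicate 2 stood apart in seed genes. The summed signal of 3 seed markers (AT3G15670, PAP85 and OLEO3) was 12.5 to 14.1 on the ASL9-ox arrays, against 1619 on wildtype replicate 2 and 8.65 and 11.4 on the other wildtype arrays. None of these 3 passed the test, and PAP85, which encodes a seed storage protein and had the smallest p among them, gave an adjusted p of 0.24 (limma). The leaf markers LHCB4.1, LHCB4.2, LHCB4.3, PSAN and RCA, which encode antenna, photosystem and Rubisco activase proteins, summed to 17588 to 18501 on the ASL9-ox arrays and to 11984 to 13399 on the wildtype arrays, and 5 of 5 rose. With quantile normalization the log2 fold change of LHCB4.1 was 0.184 in place of 0.455, and that of LHCB4.2 was 0.723 in place of 0.896. Both still passed the threshold. RCA rose least of the 5, with a log2 fold change of 0.182 (limma adjusted p = 0.0396). Its call was not followed under the alternatives. The root markers PYK10, EXPA7 and EXPA18 summed to 413.9 to 470.1 on the ASL9-ox arrays and to 2851 to 3186 on the wildtype arrays. Nearly all of this sum was PYK10, a beta-glucosidase gene of roots and hypocotyls, which fell by 2.78 on the log2 scale, while the root hair expansin genes EXPA7 and EXPA18 were at most 13.3 on every array. Only 5 of 22 listed leaf names, 3 of 26 root names and 3 of 25 seed names were measured. The part of these tissue markers in the CML results was not tested. In bulk samples such as these, fewer cells of a type and less RNA per cell cannot be told apart.

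CML23 fell most among the 6 genes. The protein is a close relative of the touch-induced CML24 (TCH2), and both act in nitric oxide accumulation and in the timing of flowering. On the probe set 260135_at (AT1G66400) the signals were 11.1, 12.4 and 13.7 on the ASL9-ox arrays, against 70.7, 48.9 and 52.0 on the wildtype arrays. The groups were far apart, with the lowest wildtype array 3.58 times as bright as the highest ASL9-ox array. The means were 12.4 ± 1.29 in ASL9-ox seedlings and 57.2 ± 11.8 in wildtype seedlings (SD, n = 3 each), so the ASL9-ox mean was 0.216 of the wildtype mean. CML23 thus had a log2 fold change of -1.36 ± 0.12 (SE), with a 95% interval from -1.64 to -1.08 and a limma adjusted p of 3.55e-05. Among all tested probe sets, 2.89% had a lower log2 fold change. All 3 ASL9-ox signals lay below 16, where the number added before the logarithm sets the fold. It was -2.11 with 1 added and -0.66 with 64 added, and it passed the threshold with either.

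CML38 also fell. Its transcript is known to respond to wounding and to low oxygen, and its protein gathers in cytosolic granules under low oxygen. The probe set 259879_at (AT1G76650) read 10.5, 5.93 and 10.7 on the ASL9-ox arrays and 20.6, 20.9 and 19.9 on the wildtype arrays. The groups did not overlap, and the wildtype arrays were nearly equal, with a coefficient of variation of 2.7%, against 29.8% among the ASL9-ox arrays. The mean signal was 9.04 ± 2.696 in ASL9-ox seedlings and 20.5 ± 0.55 in wildtype seedlings (SD, n = 3 each), a ratio of 0.442. The log2 fold change of -0.55 ± 0.12 (SE) had a 95% interval from -0.81 to -0.28 and a limma adjusted p of 0.00515. It was -1.14 with 1 added in place of 16 and -0.21 with 64 added, and it passed the threshold with either. CML38 was dim in both groups, and its ASL9-ox signals were all below 16.

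CML41 was lower in ASL9-ox seedlings as well, but by the least secure call of the 4. The protein lies at plasmodesmata, the channels between plant cells, and promotes their closure by callose after bacterial flagellin is sensed. The signals of 252136_at (AT3G50770) were 21.9, 7.87 and 17.0 on the ASL9-ox arrays, against 31.9, 40.4 and 23.9 on the wildtype arrays. The groups met almost edge to edge, since the lowest wildtype array was 1.09 times the highest ASL9-ox array. The means were 15.6 ± 7.10 in ASL9-ox seedlings and 32.1 ± 8.29 in wildtype seedlings (SD, n = 3 each), a ratio of 0.486. The log2 fold change of -0.62 ± 0.19 (SE) had a 95% interval from -1.04 to -0.20 and a limma adjusted p of 0.0256. With 1 added in place of 16 it was -1.07 and with 64 added -0.27, both past the threshold. The spread within groups was wide, and 96% of tested probe sets had a smaller within-group SD on the log2 scale. The call was lost without ASL9-ox replicate 2 (log2 fold change -0.43, limma adjusted p = 0.0684), without wildtype replicate 1 (-0.61, adjusted p = 0.0637) and without wildtype replicate 2 (-0.49, adjusted p = 0.0767), and also with no filter on dim probe sets (adjusted p = 0.0541); over all alternatives the adjusted p ran from 0.00473 to 0.0767. With each of these 3 arrays left out in turn, 2 members remained lower, CML23 and CML38.

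CML43 did not pass. It is the closest relative of CML42, and its transcript is known to rise in leaves during immune responses and to be present in root tips. The probe set 249055_at (AT5G44460) read 6.71, 5.24 and 7.17 on the ASL9-ox arrays and 5.76, 12.6 and 8.23 on the wildtype arrays, so the groups overlapped and every signal was below 16. The means were 6.37 ± 1.01 in ASL9-ox seedlings and 8.85 ± 3.45 in wildtype seedlings (SD, n = 3 each). Its log2 fold change was -0.14 ± 0.14 (SE), with a 95% interval from -0.45 to 0.16 and a limma adjusted p of 0.431. No difference was detected at these low signals, which does not show that the levels were alike. The highest of the 6 values came from wildtype replicate 2, and without that array the probe set fell below the brightness filter.

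CML42 lay slightly higher in ASL9-ox seedlings and missed the threshold. It is known from trichomes, the leaf hairs, where its loss increases branching, and from the restraint of jasmonate responses to feeding insects. The signals of 254487_at (AT4G20780) were 62.9, 59.5 and 61.6 on the ASL9-ox arrays, against 52.8, 54.9 and 40.0 on the wildtype arrays. The groups did not overlap, although the lowest ASL9-ox array was only 1.08 times the highest wildtype array. The means were 61.3 ± 1.73 in ASL9-ox seedlings and 49.3 ± 8.08 in wildtype seedlings (SD, n = 3 each), a ratio of 1.25. The log2 fold change of 0.25 ± 0.11 (SE) had a 95% interval from 0.01 to 0.49 before adjustment, and the limma adjusted p was 0.0839. The limma adjusted p lay between 0.0515 and 0.329 under all alternatives. When the arrays were centred on the hybridization controls, the log2 fold change was 0.17, and without wildtype replicate 3 it was 0.15.

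CML30 was the 1 member that rose. Its protein is found in mitochondria, unlike most of the family. The probe set 265494_at (AT2G15680) read 56.7, 73.2 and 44.6 on the ASL9-ox arrays and 25.6, 20.6 and 17.9 on the wildtype arrays. The groups were clearly separated, with the lowest ASL9-ox array 1.75 times as bright as the highest wildtype array. The mean signal was 58.2 ± 14.3 in ASL9-ox seedlings and 21.3 ± 3.91 in wildtype seedlings (SD, n = 3 each), a ratio of 2.73. The log2 fold change was 0.98 ± 0.15 (SE), with a 95% interval from 0.65 to 1.31 and a limma adjusted p of 0.000712. Among all tested probe sets 2.81% had a higher log2 fold change. With 1 added the value was 1.39 and with 64 added 0.51, and CML30 passed under all 18 alternatives.

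**Figure D1:**
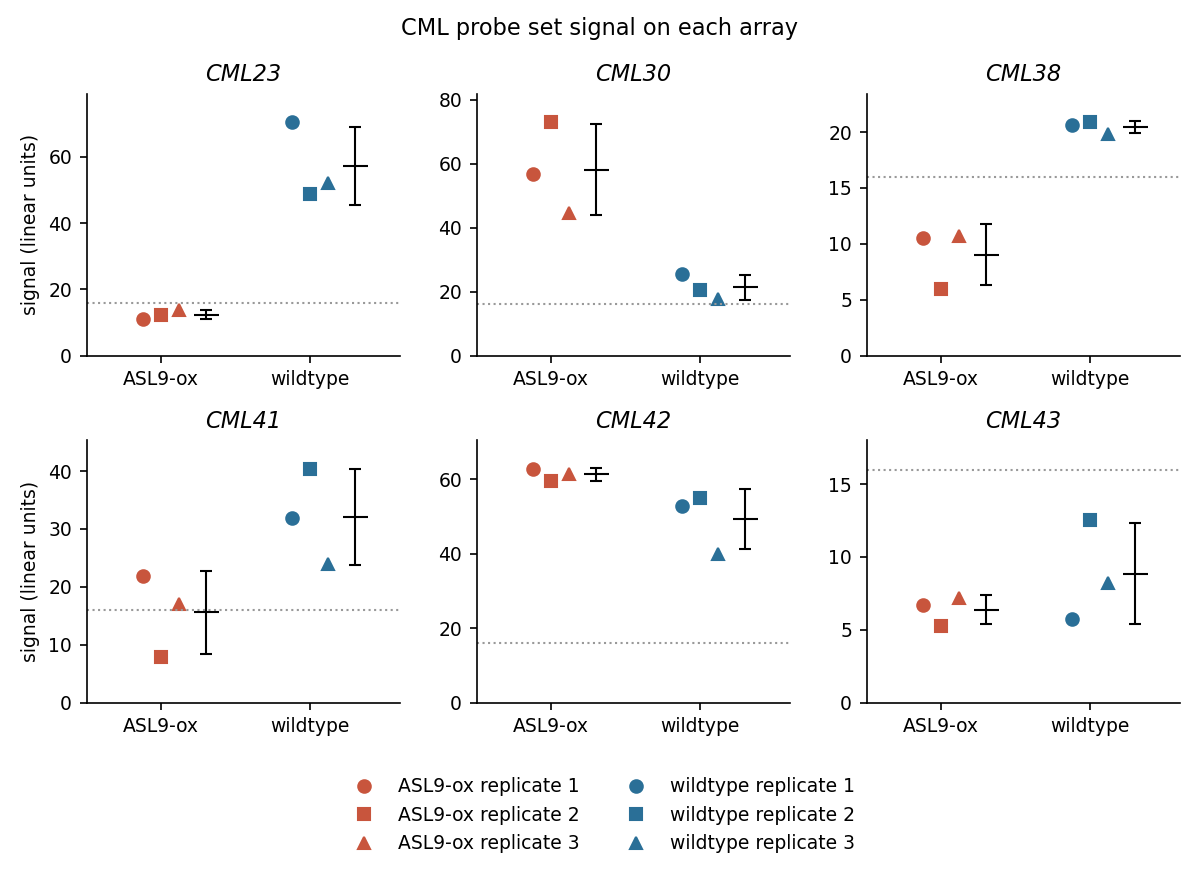
Signal of the 6 CML probe sets on each array, in linear units, with ASL9-ox left and wildtype right in each panel. Marker shapes are replicate numbers, the bars to the right of the points are mean ± SD (n = 3), and the dotted line is a signal of 16. CML23, CML38 and CML41 lie lower on all 3 ASL9-ox arrays, CML30 and CML42 lie higher, and CML43 overlaps.

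The plot of signals by array shows 5 of the 6 CML genes without overlap between the groups, 3 with ASL9-ox below and 2 with ASL9-ox above. Of all tested probe sets 54.1% did not overlap, 21.3% with ASL9-ox below and 32.8% with ASL9-ox above. Arrays differed in the same direction for several members. ASL9-ox replicate 2 had the lowest signal of its group for 4 of the 6 genes (CML38, CML41, CML42 and CML43) and the highest for CML30. Wildtype replicate 2 had the highest of its group for 4 (CML38, CML41, CML42 and CML43), and wildtype replicate 3 the lowest for 4 (CML30, CML38, CML41 and CML42). Without wildtype replicate 2, the array with the seed gene signals, the log2 fold changes were -1.44 for CML23, 0.97 for CML30, -0.54 for CML38 and 0.32 for CML42, each on the same side of the threshold as with all arrays, whereas CML41 lost its call (-0.49, adjusted p = 0.0767) and CML43 was not tested.

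**Figure D2:**
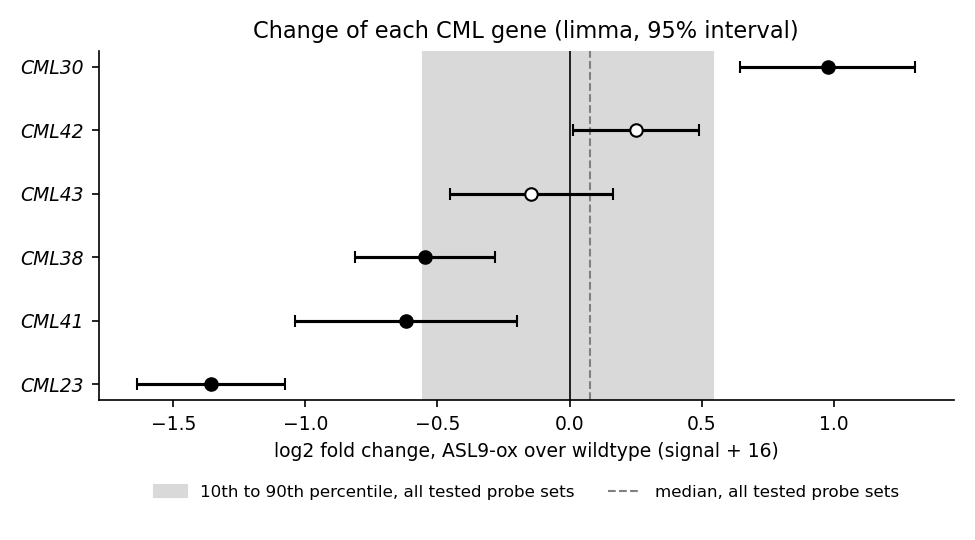
Log2 fold change of each CML gene, ASL9-ox over wildtype on the log2(signal + 16) scale, with limma's 95% interval. Filled points passed the threshold and open points did not. The grey band spans the 10th to 90th percentile of all tested probe sets, -0.56 to 0.54, and the dashed line their median of 0.08. CML23 and CML30 lie wholly outside the band.

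The intervals in the plot of fold changes show that the family did not move as a whole. CML23 and CML30 changed in opposite directions, and the intervals of both, -1.64 to -1.08 and 0.65 to 1.31, lay outside the range of -0.56 to 0.54 that holds the middle of all tested probe sets. The interval of CML38 (-0.81 to -0.28) and that of CML41 (-1.04 to -0.20) overlapped widely. The related pair CML42 and CML43 had log2 fold changes of 0.25 and -0.14 with overlapping intervals, and a difference between them was not tested.

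**Figure D3:**
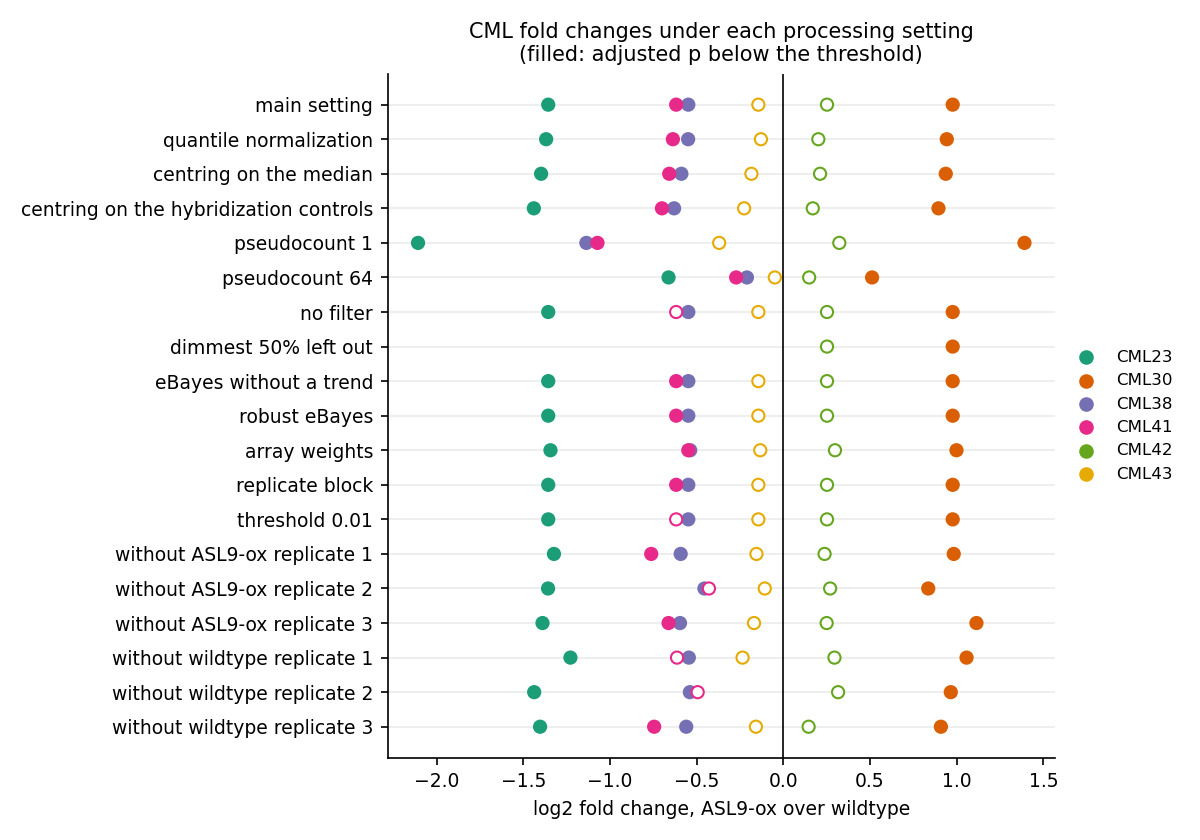
Log2 fold change of each CML gene (horizontal axis, ASL9-ox over wildtype) under the main setting and the 18 alternatives (rows). Filled points passed the threshold of that setting and open points did not. The signs are the same in every row, CML41 opens in 5 rows, and adding 1 or 64 in place of 16 moves the values most for CML23, CML30, CML38, CML41 and CML43, while for CML42 leaving out wildtype replicate 3 does.

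Other calcium genes were sampled thinly. Of 242 names in 8 lists of calcium sensors, sensor-dependent kinases, calmodulin-binding transcription factors, channels, pumps and exchangers, 161 matched a gene and 10 of those genes had a probe set of their own in the annotation. Of these, 8 were bright enough to be tested, of which 2 rose, 1 fell and 5 did not pass, with a median log2 fold change of -0.05. Among all tested probe sets 24.6% were called higher and 17.0% lower, so these few calls do not set the calcium genes apart. Calmodulins, CBL sensors, CIPK and CPK kinases and CAMTA factors were not analysed here. The annotation paired no probe set alone with those of their genes that matched, and names that matched no gene were not looked up in it. CML37, the matched gene of the other CML list with a probe set of its own, averaged 2.24 ± 1.59 in ASL9-ox seedlings and 2.46 ± 1.26 in wildtype seedlings (SD, n = 3 each), too dim to be tested. AT1G76640 (CML39) also had a probe set of its own, but it was not among the matched genes and was too dim to be tested.

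Among the calcium channel genes 1 of 7 tested fell and 1 rose, all of them glutamate receptor-like (GLR) genes. These counts stand beside 17.0% of all tested probe sets called lower and 24.6% called higher. GLR2.7, which belongs to a cluster of GLR genes that act in calcium entry during immune responses, read 23.0, 21.0 and 31.9 on the ASL9-ox arrays and 100.3, 86.2 and 78.4 on the wildtype arrays. Its groups were well separated, and it fell with a log2 fold change of -1.34 ± 0.12 (SE, limma adjusted p = 3.65e-05). Its relative GLR2.8 had a log2 fold change of -0.05 (adjusted p = 0.764) at signals of at most 9.27, and GLR2.9 was too dim to be tested. GLR3.6, a channel of long-distance wound signalling, read 22.3, 36.5 and 30.5 on the ASL9-ox arrays and 12.6, 22.6 and 17.5 on the wildtype arrays. These groups overlapped, and it rose with a log2 fold change of 0.45 ± 0.15 (SE, limma adjusted p = 0.0406). That call was lost without ASL9-ox replicate 2 (log2 fold change 0.34, adjusted p = 0.132), ASL9-ox replicate 3 (0.43, adjusted p = 0.101), wildtype replicate 1 (0.34, adjusted p = 0.127) or wildtype replicate 3 (0.45, adjusted p = 0.0917). It was also lost with quantile normalization (0.42, adjusted p = 0.0509), with centring on the median (0.41, adjusted p = 0.0606) or on the hybridization controls (0.36, adjusted p = 0.109), or without the filter on dim probe sets (0.45, adjusted p = 0.0757). The value was 0.74 with 1 added in place of 16 and 0.20 with 64 added, both past the threshold, and the adjusted p ran from 0.0154 to 0.132 over all alternatives. GLR3.3, which acts with it in wound signalling, had a log2 fold change of -0.05 (adjusted p = 0.642).

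The pump and exchanger lists gave a single tested gene, AT1G53210, named in the gene table as the sodium/calcium exchanger NCL. It read 977.6, 907.2 and 1286 on the ASL9-ox arrays and 820.3, 732.9 and 768.8 on the wildtype arrays, without overlap. It rose with a log2 fold change of 0.43 ± 0.12 (SE, limma adjusted p = 0.019), a call lost without wildtype replicate 2 (0.39, adjusted p = 0.0503) and without wildtype replicate 3 (0.42, adjusted p = 0.0567). Without ASL9-ox replicate 3 the value was 0.28 and still passed, and the adjusted p ran from 0.0091 to 0.0567 over all alternatives. The touch and wound list and the immune list each held 1 measured gene, and neither passed. STZ, a zinc finger transcription factor of abiotic stress, had a log2 fold change of -0.31 (95% interval -1.04 to 0.41), with signals of 72.5, 18.2 and 47.3 on the ASL9-ox arrays and 59.1, 77.5 and 36.5 on the wildtype arrays. On ASL9-ox replicate 2 it was the lowest, as were CML38, CML41 and CML43. WRKY22, a transcription factor of flagellin responses, had one of -0.03 (95% interval -0.28 to 0.22).

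**Figure D4:**
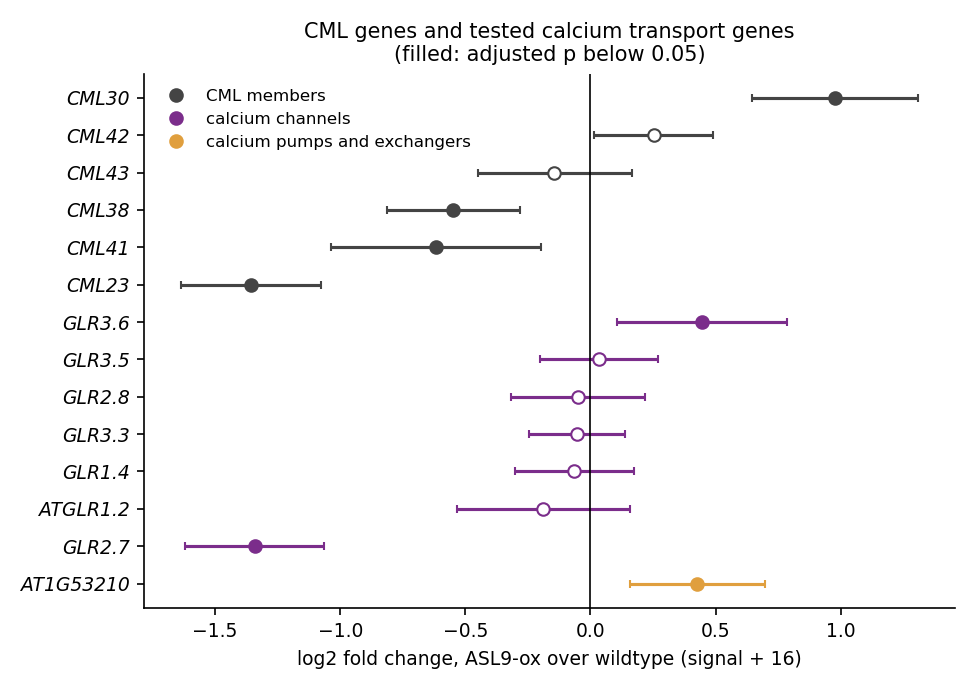
Log2 fold change with limma's 95% interval (horizontal axis, ASL9-ox over wildtype, log2(signal + 16) scale) for the 6 CML genes, 7 channel genes and 1 exchanger gene. Filled points passed the threshold. GLR2.7 lies at -1.34, close to CML23 at -1.36, while 5 of the 7 channel genes did not pass.

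The genes whose pattern over the 6 arrays was most like each member were sought among 9449 tested probe sets paired with 1 gene, by Pearson's correlation of log2(signal + 16). The 6 arrays fall in 2 groups, and such values, which mix differences between and within the groups, are given as a description. CML30 was closest to PTI1-4, which encodes a protein kinase (r = 0.9997 over 6 arrays), and then to AT3G59570 (0.9986). PTI1-4 read 106.8, 130.7 and 87.0 on the ASL9-ox arrays and 57.3, 47.8 and 44.9 on the wildtype arrays, with the arrays in the same order as for CML30. CML23 was closest to AT1G03820 (0.9972) and AT3G47080 (0.9968), and CML38 to AT5G23540 (0.9983) and the methionine sulfoxide reductase gene MSRB9 (0.9959). MSRB9 read 63.0, 37.9 and 64.6 on the ASL9-ox arrays and 187.4, 201.5 and 179.5 on the wildtype arrays, with ASL9-ox replicate 2 lowest, as for CML38. Such likeness, here and for PTI1-4, follows from choosing the genes by correlation over these arrays and is no separate support. CML41 was closest to AT2G41810 (0.9946) and AT1G09330 (0.9936), CML42 to AT2G43370 (0.9981) and AT2G17710 (0.9968), and CML43 to AT4G28770 (0.9769) and AT1G61420 (0.9735). Patterns with r above 0.95 were shared by 4.36% of the candidates for CML23, 4.83% for CML30 and 3.49% for CML38, but by 0.529% for CML41, 0.519% for CML42 and 0.127% for CML43.

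Of the 4 tested genes next to a member on the chromosome, those beside CML30, CML38 and CML41 did not pass in that member's direction. The remaining tested gene lies beside CML43, which was not called, and CML23 and CML42 had no tested neighbour. Of the 12 protein-coding neighbours in the RefSeq gene table (assembly TAIR10.1), 9 had a probe set paired with 1 gene. Of these, 4 were bright enough to be tested, and 2 rose, 2 did not pass and 0 fell (0 also at an unadjusted p below 0.05 in limma). Among all tested probe sets 24.6% were called higher and 17.0% lower, and 4 genes are too few to set against these shares. CML38 lies beside AT1G76640 (CML39), itself listed as calmodulin-like, which read 0.371 to 1.06 on the ASL9-ox arrays and 0.388 to 0.673 on the wildtype arrays. On the other side of CML38, AT1G76660 rose with a log2 fold change of 0.46 ± 0.12 (SE, limma adjusted p = 0.014), the opposite direction to CML38. Next to CML41, AT3G50780 likewise rose, with signals of 93.0, 105.8 and 89.4 on the ASL9-ox arrays and 57.4, 48.6 and 54.3 on the wildtype arrays (log2 fold change 0.69 ± 0.09, limma adjusted p = 0.000358). Beside CML30, AT2G15690 had a log2 fold change of -0.09 (adjusted p = 0.542), and beside CML43, AT5G44450 had one of 0.32 (adjusted p = 0.0552). CML23 lies between MYB90 and the calmodulin gene CAM4, neither of which had a probe set paired with it alone.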

How the data were processed

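The intensity values were deposited by the authors as 1 signal per probe set and array. The Affymetrix programs MAS5 and GCOS were used, per the submitters' processing notes; their versions and the genome build are not stated. Groups came from the sample titles. The platform annotation paired 13513 probe sets with 1 gene, 503 with several and left 8794 unnamed. Symbols came from the RefSeq table (TAIR10.1), whose coordinates were used only for the order of genes. The 64 control probe sets and the dimmest 25% by mean signal were left out. The rest, as log2(signal + 16), went into limma 3.58.1 under R 4.3.3 (eBayes with an intensity trend, two-sided). The procedure was also run on simulated arrays with independent noise and few changed probe sets. Far more probe sets were called here, so that run cannot vouch for these p-values. Figures used matplotlib 3.10.9.

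Members, gene lists and alternatives were chosen with earlier results of these data known. Named genes were all 6 members, up to 4 called genes per list by size of change (or that with the smallest p where none was called), and the 2 genes most like each member. Other genes of a list, and the neighbours, were named after their values were seen. A planned search of protein and promoter sequences was not run, and sequences are not used here. Alternatives covered normalization, pseudocount, filter, variance model, array weights, replicate number as a block, threshold and each array left out. The sources do not say whether a group's samples were separate cultures. If they were not, the p-values reflect technical spread alone. The number of arrays limits the precision.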

Additional observations from a re-analysis of the deposited data

How the results depend on the processing

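Under 18 alternatives the 6 CML genes had 103 values in all. The call and direction were kept in 98 of them and the sign turned in 0, and the exceptions were all CML41. Its log2 fold change of -0.62 missed the threshold with no filter (adjusted p = 0.0541) and at a threshold of 0.01 (0.0256), and its range was -0.76 to -0.43 with single arrays left out, the call being lost in 3 of 6. With the dimmest 50% left out 0 members were lower, because only CML30 and CML42 were then tested. Without wildtype replicate 2 CML43 was not tested. A replicate block was also fitted, and the same 4 members passed, with adjusted p-values of 0.000262 for CML23, 0.001 for CML30, 0.0143 for CML38 and 0.0437 for CML41, and 6177 probe sets passed in place of 7108; deviations of same-numbered arrays correlated at -0.116, -0.059 and 0.021, which gave no pairing of the samples by number. Centring on 18 hybridization control probe sets gave 2362 higher probe sets in place of 4204, 44.6% of the calls in place of 59.1%, and a threshold of 0.01 gave 2541; the cause of the first was not tested. The calcium lists had 1 higher gene in place of 2 with quantile normalization, with centring on the median or on the hybridization controls, with no filter and with the dimmest 50% left out, 0 at a threshold of 0.01, and 0 to 2 when 1 array was left out. Values near 0 changed sign when 1 array was left out for WRKY22 (-0.082 to 0.0391) and AT1G61420 (-0.10 to 0.0094). The value of STZ, -0.31 with an SE of 0.32, did so as well (-0.62 to 0.0615). None of these genes passed the threshold. Without detection calls, signals below 16 could not be set against background.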
